A study of Mus musculus with 204 samples.

Results

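Brown adipose tissue of lean mice was compared with subcutaneous fat of lean mice, using 4 brown fat libraries and 3 subcutaneous fat libraries of a mouse tissue atlas of poly(A) RNA sequencing. The comparison covered every gene with a mean of at least 10 CPM (reads of a gene scaled to a common library size) over these 7 libraries, which was 1919 of the 13153 genes in the table. All mice were male wild-type C57BL/6J mice. The lean mice ate a standard chow with 13.1% fat. Libraries of diet-induced obese (DIO) mice, which ate a diet with 60% fat for 10 weeks, gave the same depot comparison in separate libraries, with 4 of brown fat and 3 of subcutaneous fat. Each library was made from a piece of frozen tissue, so every value is a mixture of adipocytes and the other cells of the depot, and in such bulk RNA fewer cells of a type and less RNA per cell cannot be told apart. The labels do not say which brown and which subcutaneous library came from the same mouse, nor that libraries of a group came from separate mice, so the depots were compared without pairing and p-values measure only the spread between these libraries.

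Brown adipocytes are packed with mitochondria and oxidise fatty acids and glucose to produce heat. Protons that the respiratory chain pumps out flow back through an uncoupling protein instead of driving ATP synthesis, and noradrenaline acting through cyclic AMP switches the process on. White adipocytes of subcutaneous fat store triglyceride, secrete hormones and sit in a collagen-rich stroma. The table holds genes of chromosomes 1, 2, 3 and X and the beginning of chromosome 4. Ucp1, Cidea, Prdm16, Dio2 and Ppargc1a, which usually define brown fat, were not analysed here.

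The 4 brown fat libraries held 20.7 to 28.9 megareads and the 3 subcutaneous libraries 22.5 to 28 megareads. In brown fat 14.6% to 15.3% of all reads fell on the genes of the table, and in subcutaneous fat 21.1% to 21.5%. CPM values were lower in brown fat for most genes, with a median log2 difference of -0.55 over the 1919 genes. Log2 differences below are brown minus subcutaneous on log2(CPM + 1) after each library was rescaled by its median ratio to the others, which puts the median of all genes at -0.0070, and levels are given in CPM as deposited. Other libraries of both tissues were set aside because they hold transcripts of another tissue. Brown fat lean 2 had 158.5 CPM of the muscle gene Tnnc2, and subcutaneous lean 2 and 3 had 146.6 and 146.0 CPM of Cr2, a B-cell and follicular dendritic cell receptor of lymph nodes. Brown fat DIO 5, with 765.3 CPM of the muscle gene Ttn, was set aside in the DIO comparison.

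On the rescaled values 680 genes were higher in brown fat (35.4% of those tested) and 668 were lower (34.8%) at a limma adjusted p under 0.05. On CPM as deposited 284 genes were higher (14.8%) and 1285 were lower (67.0%). All 284 of the higher genes and 668 of the lower genes were called in the same direction on both scales, whereas 82 genes were lower on CPM and higher after rescaling, and 535 were lower on CPM only. The libraries of the 2 depots did not overlap in CPM for 280 genes that were higher in brown fat (14.6%) and 1271 that were lower (66.2%). The leading rises and falls described below were picked among these genes, so their lack of overlap is part of the rule. At least 4-fold differences with a call on rescaled values were found for 55 genes higher and 98 genes lower in brown fat. With the libraries that had been set aside restored, 598 genes were higher and 601 lower after rescaling. Of the tested genes 238 had a mean under 10 CPM in brown fat and 29 in subcutaneous fat. Such genes passed the limit only through the other depot, which fixed the direction of their CPM means. Just inside the limit of 10 CPM lay Zbtb34, with means of 7.53 CPM in brown and 13.3 CPM in subcutaneous fat, and just outside it lay Fcer1g, with 2.51 and 19.9 CPM in brown and subcutaneous fat.

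Of the brown adipocyte genes, 9 were in the table and 4 were tested, and all 4 were higher in brown fat, with a median rescaled difference of 3.83. Slc27a2, a very long-chain acyl-CoA synthetase and fatty acid transport protein, had 223, 108, 173 and 264 CPM in brown fat against 0.143, 1.74 and 0.267 CPM in subcutaneous fat. Esrrg, an orphan nuclear receptor that drives mitochondrial genes, had 23.5, 23.9, 27.3 and 25.4 CPM in brown fat against 0.608, 2.53 and 0.667 CPM in subcutaneous fat. Both genes passed the limit of 10 CPM only through brown fat, which fixed the direction of their CPM means. The rescaled difference was 7.19 ± 0.34 (SE) for Slc27a2 (limma adjusted p 1.18e-07) and 4.00 ± 0.24 for Esrrg (adjusted p 4.94e-07). Gk, glycerol kinase, which lets brown adipocytes reuse glycerol, had 103, 98.9, 122 and 133 CPM in brown fat against 10.8, 13.2 and 12.3 CPM in subcutaneous fat, a difference of 3.66 ± 0.13. Slc25a44, the mitochondrial carrier of branched-chain amino acids, had 126, 165, 149 and 136 CPM in brown fat against 89.0, 102 and 88.5 CPM in subcutaneous fat and differed by 1.18 ± 0.11 (adjusted p 7.02e-06).

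The other 5 list members lay under the limit of 10 CPM and were not tested. In 3 of them every brown library was lower than every subcutaneous library, as it was for 66.2% of all tested genes. These were named after their values were seen. Lhx8, a homeobox gene often listed with brown fat, had 3.01, 2.17, 2.50 and 2.25 CPM in brown fat against 5.36, 5.64 and 5.03 CPM in subcutaneous fat. Tbx15, a T-box factor of brown and beige precursors, had 1.45, 3.14, 2.58 and 3.86 CPM in brown fat against 15.9, 15.3 and 21.4 CPM in subcutaneous fat. Bmp7, a growth factor that promotes brown adipocyte formation, had 0.277, 0.0965, 0.287 and 0.121 CPM in brown fat against 3.82, 6.96 and 0.534 CPM in subcutaneous fat. Sgk2, a kinase, was at or under 0.657 CPM in all 7 libraries. Its summed reads were 44 in brown and 3 in subcutaneous fat, a CPM ratio of 11.1 (95% counting interval 3.54 to 55.7). Cox4i2, an isoform of a cytochrome c oxidase subunit, had 1.74 to 2.28 CPM in brown fat and 0.894 to 2.74 CPM in subcutaneous fat.

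**Figure D1:**
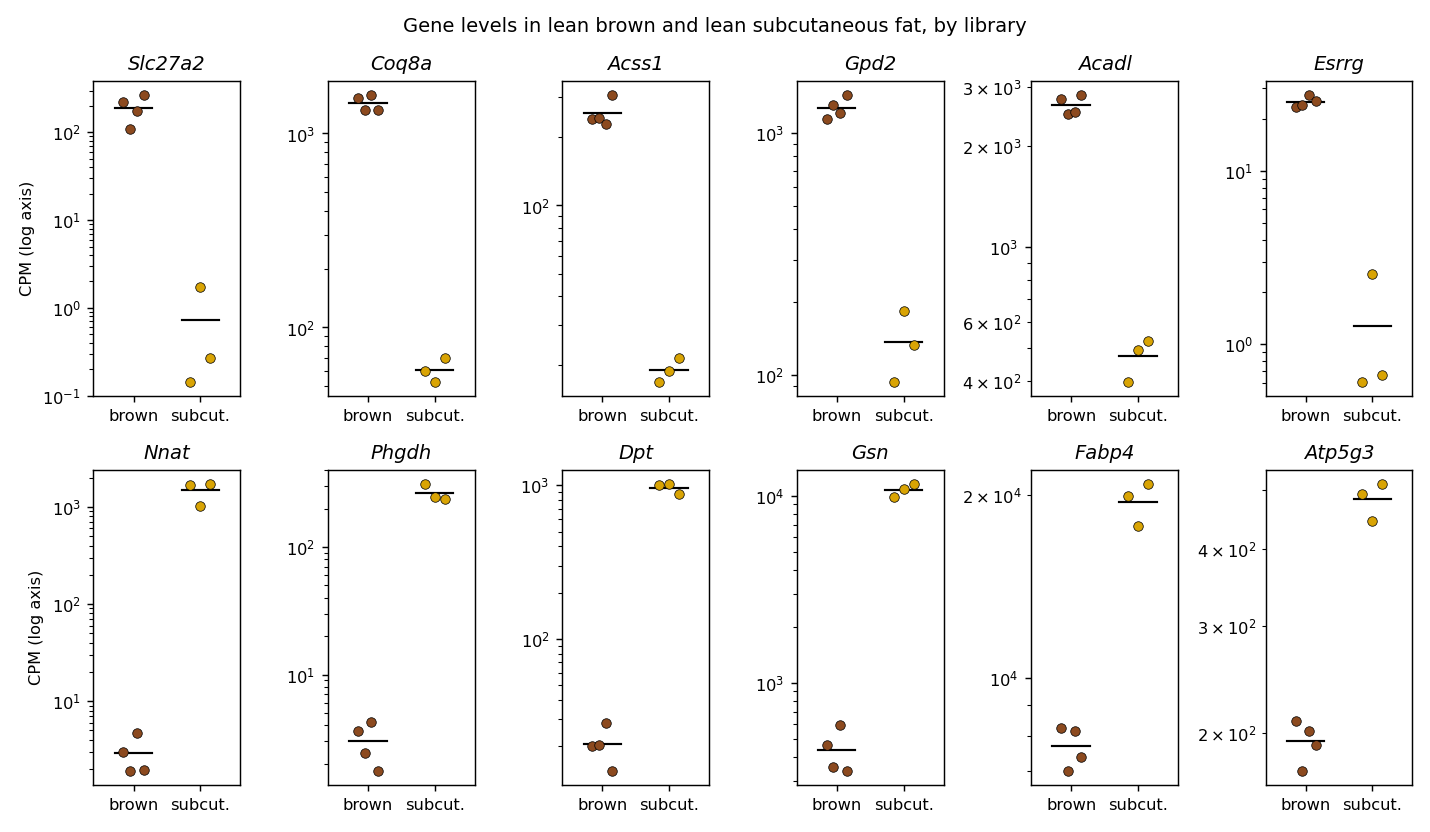
Level of 12 genes in each lean library, brown fat on the left and subcutaneous fat on the right of each panel, in CPM on a log axis that differs between panels. Points are libraries (4 brown, 3 subcutaneous) and bars are means. No library of one depot overlaps the other for any of the 12 genes. All except Esrrg, Fabp4 and Atp5g3 were picked among genes without overlap. Over all tested genes 14.6% were higher and 66.2% lower in brown fat without overlap. Slc27a2, for example, lies between 108 and 264 CPM in brown fat and at or under 1.74 CPM in subcutaneous fat.

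Subunits of the respiratory chain and of ATP synthase were higher in brown fat almost without exception. Of 17 tested subunits 16 were higher on both scales and 1 was lower, with a median rescaled difference of 1.83 against -0.0070 over all genes. Ndufa10, a complex I subunit, had 841, 737, 725 and 741 CPM in brown fat against 193, 193 and 181 CPM in subcutaneous fat, a difference of 2.56 ± 0.08. Ndufs1, a subunit of the complex I core, differed by 2.54, and Cox7b and Cox5b, subunits of cytochrome c oxidase, by 2.43 and 2.02. Ndufb5 and Ndufb11, accessory subunits of complex I, differed by 2.25 and 1.94. The exception was Atp5g3, 1 of several genes that encode the identical c subunit of the ATP synthase rotor. It had 210, 174, 202 and 192 CPM in brown fat against 493, 444 and 511 CPM in subcutaneous fat and differed by -0.75 ± 0.09 after rescaling (limma adjusted p 3.99e-05) and by -1.31 on CPM. With the libraries that were set aside restored, 16 subunits were higher and 0 lower after rescaling.

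Factors that assemble the chain or feed electrons into ubiquinone followed the subunits, with 11 of 11 higher in brown fat after rescaling, 9 of them also on CPM, and a median of 1.53. Gpd2, the mitochondrial glycerol-3-phosphate dehydrogenase, had 1145, 1307, 1208 and 1431 CPM in brown fat against 93.8, 184 and 133 CPM in subcutaneous fat. Etfdh, which passes electrons from fatty acid oxidation to ubiquinone, had 967, 948, 892 and 1002 CPM in brown fat against 122, 166 and 150 CPM in subcutaneous fat. Gpd2 and Etfdh differed by 3.82 ± 0.20 and 3.27 ± 0.11. Aifm1, a mitochondrial oxidoreductase needed for complex I, differed by 2.27, Uqcc1, an assembly factor of complex III, by 2.02, and Coa5, one of cytochrome c oxidase, by 1.84. Ndufaf1 and Ndufaf5, which assemble complex I, differed by 1.48 and 1.47. Coq8a, needed to make ubiquinone itself and outside these lists, had 1523, 1315, 1572 and 1322 CPM in brown fat against 59.9, 52.4 and 69.7 CPM in subcutaneous fat, a difference of 5.10 ± 0.10 (limma adjusted p 3.61e-09).

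Promoters of named genes were searched for 3 motifs, because the nuclear receptor Esrrg and cyclic AMP signalling are known to act on respiratory genes. Looked up were the leading rises and named members of the brown adipocyte, respiratory subunit, citric acid cycle, oxidation and developmental lists. Of these 41 genes 36 matched a RefSeq promoter. The other respiratory subunits and assembly genes were not looked up by name. The motifs, read on both strands in RefSeq windows from 250 bases before to 50 after the start of a gene (build GRCm38.p6), were the estrogen-related receptor element TCAAGGTCA, the DR1 direct repeat bound by PPAR and other nuclear receptors, and the cyclic AMP response element TGACGTCA. The rule for printing promoters covered the leading rises and the brown adipocyte, oxidation and developmental genes, and none of those matched held a motif. Among the genes looked up outside that rule 2 respiratory subunits held one. They were the complex I gene Ndufa10, which was higher in brown fat, and Atp5g3, the lower one. These 2 promoters are printed 5′ to 3′ on the strand of the gene with the motif in capitals. Ndufa10 lies at chr1:92473709-92474008 on the minus strand, with TGACGTCA starting at position -67 from the start of the gene, and Atp5g3 at chr2:73911277-73911576 on the minus strand, with the reverse complement of the estrogen-related receptor element at -52.
Ndufa10: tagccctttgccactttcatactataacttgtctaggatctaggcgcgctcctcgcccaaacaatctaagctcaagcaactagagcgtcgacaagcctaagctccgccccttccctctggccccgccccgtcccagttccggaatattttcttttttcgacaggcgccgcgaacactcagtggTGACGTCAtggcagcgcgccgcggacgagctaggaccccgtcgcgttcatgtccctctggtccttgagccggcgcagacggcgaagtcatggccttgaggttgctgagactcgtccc
Atp5g3: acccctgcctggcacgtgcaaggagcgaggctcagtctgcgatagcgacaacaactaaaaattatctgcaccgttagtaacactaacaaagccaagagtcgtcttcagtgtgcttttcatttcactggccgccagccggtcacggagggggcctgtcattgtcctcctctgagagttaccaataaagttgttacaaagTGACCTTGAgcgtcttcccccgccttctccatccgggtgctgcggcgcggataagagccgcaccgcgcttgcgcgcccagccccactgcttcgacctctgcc

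Over all RefSeq windows TCAAGGTCA stood in 139 of 32851 (0.423%) and TGACGTCA in 1.79%. Among genes higher in brown fat after rescaling TCAAGGTCA stood in 3 of 725 windows (0.414%), and among genes lower in brown fat in 3 of 750 (0.400%). TGACGTCA stood in 16 of 725 windows (2.21%) of the higher genes and in 12 of 750 (1.6%) of the lower genes. The direct repeat was in 13 of all windows and in none of the tested genes. A match is a description of the letters and not a bound site.

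Genes of pyruvate use and the citric acid cycle were higher in brown fat on both scales in 9 of 10 cases, with a median rescaled difference of 2.61. The exception, Idh1, was lower on CPM and not called after rescaling. Acss1, which makes acetyl-CoA from acetate in mitochondria, had 238, 242, 228 and 304 CPM in brown fat against 16.9, 18.8 and 21.5 CPM in subcutaneous fat, and differed by 4.2 ± 0.12. Idh3b and Idh3g, subunits of the isocitrate dehydrogenase of the cycle, differed by 2.98 and 2.85, and Fh1, fumarase, by 2.55. Slc16a1, the lactate and pyruvate carrier of the plasma membrane, differed by 2.87. Mpc2, a subunit of the mitochondrial pyruvate carrier, differed by 1.53. Pdha1, the catalytic subunit of pyruvate dehydrogenase, had 2562, 2779, 2757 and 2815 CPM in brown fat against 485, 765 and 671 CPM in subcutaneous fat. Pdhx, another part of the complex, and Pdk1, a kinase that inhibits it, differed by 1.85 and 2.01. Pdk3, another kinase that inhibits the complex, and Pdp1, a phosphatase that reactivates it, had means under the limit of 10 CPM over the 7 libraries, were not tested and are named after their values were seen. Pdk3 had 0.796, 0.772, 0.573 and 0.643 CPM in brown fat against 10.6, 7.88 and 7.30 CPM in subcutaneous fat, and Pdp1 had 5.50, 5.64, 6.63 and 6.23 CPM in brown fat against 12.3, 14.2 and 14.6 CPM in subcutaneous fat. Both were lower in every brown library than in every subcutaneous library, as were 66.2% of all tested genes.

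Of 15 tested genes of fatty acid oxidation 13 were higher in brown fat after rescaling, 11 of them also on CPM, and none was lower, with a median of 1.94; on CPM 2 were lower. Acadl, the long-chain acyl-CoA dehydrogenase, had 2763, 2497, 2532 and 2831 CPM in brown fat against 397, 494 and 527 CPM in subcutaneous fat and differed by 3.06 ± 0.11. Acadm, the medium-chain enzyme, had 2073, 1978, 2057 and 2222 CPM in brown fat against 439, 601 and 566 CPM in subcutaneous fat and differed by 2.53 ± 0.12. Decr1, which handles unsaturated fatty acids, differed by 1.94. The peroxisomal genes Abcd3, a fatty acid importer, and Phyh, which oxidises phytanic acid, differed by 2.20 and 1.97, but Cat, the peroxisomal catalase, differed by 0.05 after rescaling, where it was not called, and by -0.51 on CPM, where it was.

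Breakdown of branched-chain amino acids followed in smaller steps. After rescaling 5 of 6 tested genes were higher and none was lower (median 0.86), whereas on CPM 3 were higher and 1 was lower. Hibch of the valine pathway differed by 1.37, Dbt, the core of the branched-chain ketoacid dehydrogenase, by 1.14, and Mccc1 of the leucine pathway by 0.59. Ivd, isovaleryl-CoA dehydrogenase, had 305, 284, 289 and 295 CPM in brown fat against 352, 365 and 431 CPM in subcutaneous fat. It differed by -0.38 on CPM (limma adjusted p 0.0026), and the sign turned after rescaling, at 0.18 (adjusted p 0.0707). Of the creatine and glutamine genes, 3 were tested, 2 were higher and 1 was lower on both scales. Glul, glutamine synthetase, differed by 1.23, and Slc6a8, the creatine transporter, by 0.94.

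Genes of fatty acid and triglyceride synthesis did not move in one direction. Of 17 tested, 6 were higher and 9 lower after rescaling, with a median of -0.52, and on CPM 4 were higher and 11 lower. After rescaling, 5 were higher and 4 lower with the libraries that were set aside restored, and 3 were higher and 7 lower with brown fat lean 1 as the only brown library. Elovl6, which elongates palmitate, had 1264, 1860, 2024 and 1840 CPM in brown fat against 219, 592 and 283 CPM in subcutaneous fat and differed by 2.93 ± 0.31 (limma adjusted p 1.92e-05). Acss2, which makes acetyl-CoA for synthesis in the cytosol, differed by 1.15. Fabp4, the fatty acid carrier of adipocytes, had 8270, 7020, 8173 and 7386 CPM in brown fat against 19930, 17790 and 20880 CPM in subcutaneous fat and differed by -0.78 ± 0.14 (adjusted p 0.000904). Lpgat1, a lysophospholipid acyltransferase, differed by -1.95, Mogat1, a monoacylglycerol acyltransferase, by -1.22, Irs1, an insulin receptor substrate, by -0.94, and Hsd11b1, which reactivates glucocorticoids, by -0.79. Pck1, which makes glycerol phosphate precursors, had 3564, 2210, 3031 and 3679 CPM in brown fat and 3797, 4159 and 5443 CPM in subcutaneous fat, a rescaled difference of 0.04.

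**Figure D2:**
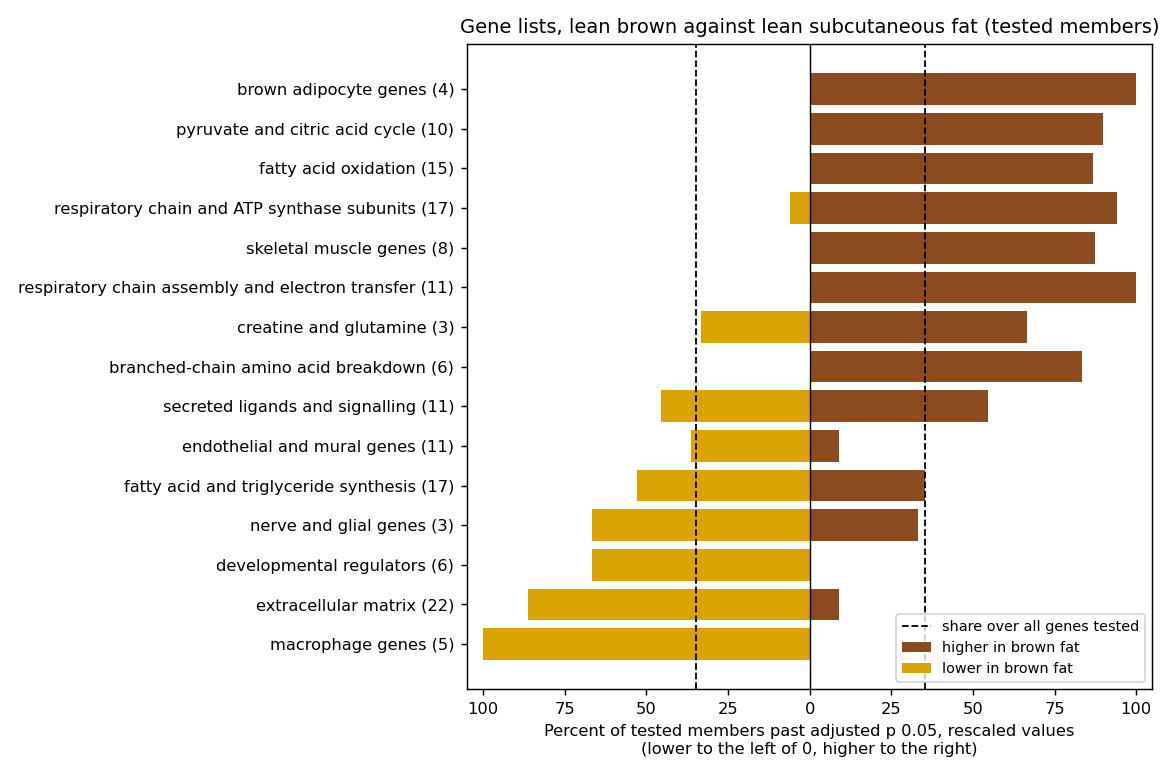
Share of the tested members of each list that were higher (brown bars, to the right) or lower (yellow bars, to the left) in lean brown than in lean subcutaneous fat on rescaled values, with the number tested in parentheses; lists with 3 or more tested members, ordered by their median difference. Dashed lines mark the shares over all 1919 genes, 35.4% higher and 34.8% lower; 16 of 17 respiratory subunits lie on the right and 19 of 22 matrix genes on the left.

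Matrix genes were mostly low in brown fat. The table held 39 matrix genes, of which 22 were tested; 19 were lower and 2 higher after rescaling, with a median of -2.06, while on CPM 20 were lower and none higher. Dpt, dermatopontin, which organises collagen fibrils, had 19.9, 20.3, 28.1 and 13.8 CPM in brown fat against 1009, 1021 and 874 CPM in subcutaneous fat. Col3a1, a fibrillar collagen, had 120, 96.8, 164 and 78.1 CPM in brown fat against 1399, 1486 and 1074 CPM in subcutaneous fat. The differences were -4.98 ± 0.18 for Dpt and -2.99 ± 0.22 for Col3a1. Col5a1 and Col5a2, which regulate fibril diameter, differed by -3.17 and -2.96. Srpx2, a secreted sushi-repeat protein, differed by -3.95, Chrdl1, an antagonist of bone morphogenetic proteins, by -3.89, Ctsk, a collagen-degrading protease, by -3.52, and Ecm1 by -2.85. Srpx2, Chrdl1, Ctsk and Ecm1 passed the limit of 10 CPM only through subcutaneous fat, which fixed the direction of their CPM means. The same holds for Thbs1 and Sulf1, which are also among the tested matrix genes. The 2 members higher after rescaling were Lamc3, a laminin chain, and Postn, periostin, at 0.80 and 0.53, and neither was called on CPM.

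The largest fall of all was Nnat, neuronatin, an imprinted membrane protein gene. It had 2.98, 1.93, 4.71 and 1.97 CPM in brown fat against 1680, 1028 and 1719 CPM in subcutaneous fat, a difference of -8.09 ± 0.25 (limma adjusted p 2.12e-08). Phgdh, which starts the synthesis of serine, had 3.63, 2.41, 4.22 and 1.77 CPM in brown fat against 311, 247 and 236 CPM in subcutaneous fat, a difference of -5.59 ± 0.21. Heph, a ferroxidase that helps iron leave cells, had 2.94, 2.31, 3.40 and 1.93 CPM in brown fat against 131, 132 and 124 CPM in subcutaneous fat, a difference of -4.68 ± 0.13. Nnat, Phgdh and Heph passed the limit of 10 CPM only through subcutaneous fat, as did Chst1, Gsta3 and Dock11 below. Gsn, gelsolin, which severs actin filaments, had 465, 355, 599 and 340 CPM in brown fat against 9895, 10860 and 11540 CPM in subcutaneous fat and differed by -4.08 ± 0.18. Chst1, a sulfotransferase for keratan sulfate, differed by -4.75, Gsta3, a glutathione S-transferase, by -4.53, Dock11, an activator of Cdc42, by -4.18, and Atp2b4, a plasma membrane calcium pump, by -3.69.

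Of 11 tested secreted and signalling genes, 6 were higher and 5 lower in brown fat after rescaling, while on CPM 2 were higher and 5 lower. Lbp, a lipopolysaccharide-binding protein, had 1.42, 1.06, 1.76 and 1.17 CPM in brown fat against 114, 67.6 and 37.6 CPM in subcutaneous fat and differed by -4.39 ± 0.32. Inhbb, which encodes the subunit of activin B, differed by -4.0, Ptges, a prostaglandin E synthase, by -3.50, and Csf1, the macrophage growth factor, by -2.01. Lbp, Inhbb, Ptges and Csf1, and Sucnr1 below, passed the limit of 10 CPM only through subcutaneous fat, which fixed the direction of their CPM means. Sucnr1, the receptor for succinate and outside these lists, had 2.91, 3.81, 3.89 and 2.17 CPM in brown fat against 98.7, 63.8 and 72.1 CPM in subcutaneous fat and differed by -3.73 ± 0.19. Creb1, a transcription factor activated by cyclic AMP signalling, had 25.2, 25.4, 22.4 and 22.4 CPM in brown fat against 36.1, 42.5 and 44.1 CPM in subcutaneous fat. It differed by -0.21 ± 0.08 after rescaling (limma adjusted p 0.0456) and by -0.75 on CPM. Gnas, whose product couples adrenergic receptors to cyclic AMP, had 1956, 1881, 1689 and 1958 CPM in brown fat against 815, 802 and 737 CPM in subcutaneous fat and differed by 1.81 ± 0.10. Rgs2, which shortens G-protein signals, had 154, 203, 47.1 and 41.4 CPM in brown fat against 15.8, 22.8 and 12.9 CPM in subcutaneous fat. It differed by 2.88 ± 0.52 (limma adjusted p 0.000708), with a wide spread among the brown libraries. Lgr6, a receptor for R-spondins, had 89.1, 84.5, 72.7 and 115 CPM in brown fat against 0.179, 0.0829 and 0 CPM in subcutaneous fat. Summed over libraries this was 8973 reads in brown fat and 7 in subcutaneous fat, a CPM ratio of 966 with a 95% counting interval of 469 to 2400. Lgr6 passed the limit of 10 CPM only through brown fat, which fixed the direction of its CPM means.

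The developmental list holds regulators of body position and limb identity, and also Nnat. Most of its members were low in brown fat or hardly expressed in either depot. Of 31 in the table only 6 were tested, and 4, Nnat among them, were lower and none higher after rescaling, with 5 lower on CPM. With the libraries that were set aside restored, 3 were lower and 1 higher after rescaling. Nnat, Prrx1 and Hoxd8 passed the limit of 10 CPM only through subcutaneous fat, which fixed the direction of their CPM means. Prrx1, a homeobox gene of limb and trunk mesenchyme, had 4.81, 6.75, 7.37 and 5.51 CPM in brown fat against 54.6, 53.3 and 48.4 CPM in subcutaneous fat and differed by -2.39 ± 0.14. Hoxd8 had 7.02, 4.78, 7.0 and 4.82 CPM in brown fat against 24.4, 12.3 and 23.9 CPM in subcutaneous fat and differed by -1.07 (limma adjusted p 0.00276). Meis2, a partner of Hox proteins, differed by -0.44 on CPM (adjusted p 0.0297) and turned sign after rescaling, at 0.08. Mecom, a zinc finger regulator related to Prdm16, differed by 0.25 after rescaling and by -0.27 on CPM and was not called on either scale.

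Other members lay under the limit of 10 CPM and are described without a test, chosen after their values were seen. Shox2, a homeobox gene of proximal limb, had 0.899, 0.917, 2.62 and 1.65 CPM in brown fat against 7.76, 16.7 and 27.4 CPM in subcutaneous fat. Hoxd9 had 0.554, 0.386, 0.655 and 0.724 CPM in brown fat against 4.93, 3.77 and 7.16 CPM in subcutaneous fat, and En1, a gene of dermomyotome and dorsal skin, had 0.277, 0.289, 0.614 and 0.281 CPM against 3.82, 1.2 and 3.52 CPM. In each of the 3 the subcutaneous libraries lay above all brown libraries, as they did for 66.2% of all tested genes. Hoxd10 was at 0 in the 4 brown libraries and at 0.250, 0.290 and 0.223 CPM in the subcutaneous ones.

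Leading genes were also read in the 3 other lean white depots. Among the 14 leading rises 11 lay higher in every brown library than in every mesenteric, epididymal and retroperitoneal library, and among the 14 leading falls 13 lay lower. These genes were picked for extreme values in the same brown libraries. The share over all tested genes was not computed, so the counts do not show that leading genes differ from other genes in this. Slc27a2 reached at most 8.64 CPM in any of these depots, Lgr6 at most 0.789 CPM and Acss1 at most 22.1 CPM. The exceptions among the rises were Elovl6, which had 1331 to 2029 CPM in mesenteric fat against 1264 to 2024 CPM in brown fat, Tmem79, a membrane protein known from the skin of mice, and the muscle gene Ttn. Nnat had at least 215 CPM, Phgdh at least 263 CPM and Heph at least 67.8 CPM in these white depots. Prrx1 was graded, with medians of 6.13 CPM in brown, 53.3 CPM in subcutaneous, 14.9 CPM in mesenteric, 19.9 CPM in epididymal and 19.1 CPM in retroperitoneal fat. Of Tbx15 the medians were 2.86 CPM in brown, 15.9 CPM in subcutaneous, 0.0838 CPM in mesenteric, 0.154 CPM in epididymal and 4.58 CPM in retroperitoneal fat.

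**Figure D3:**
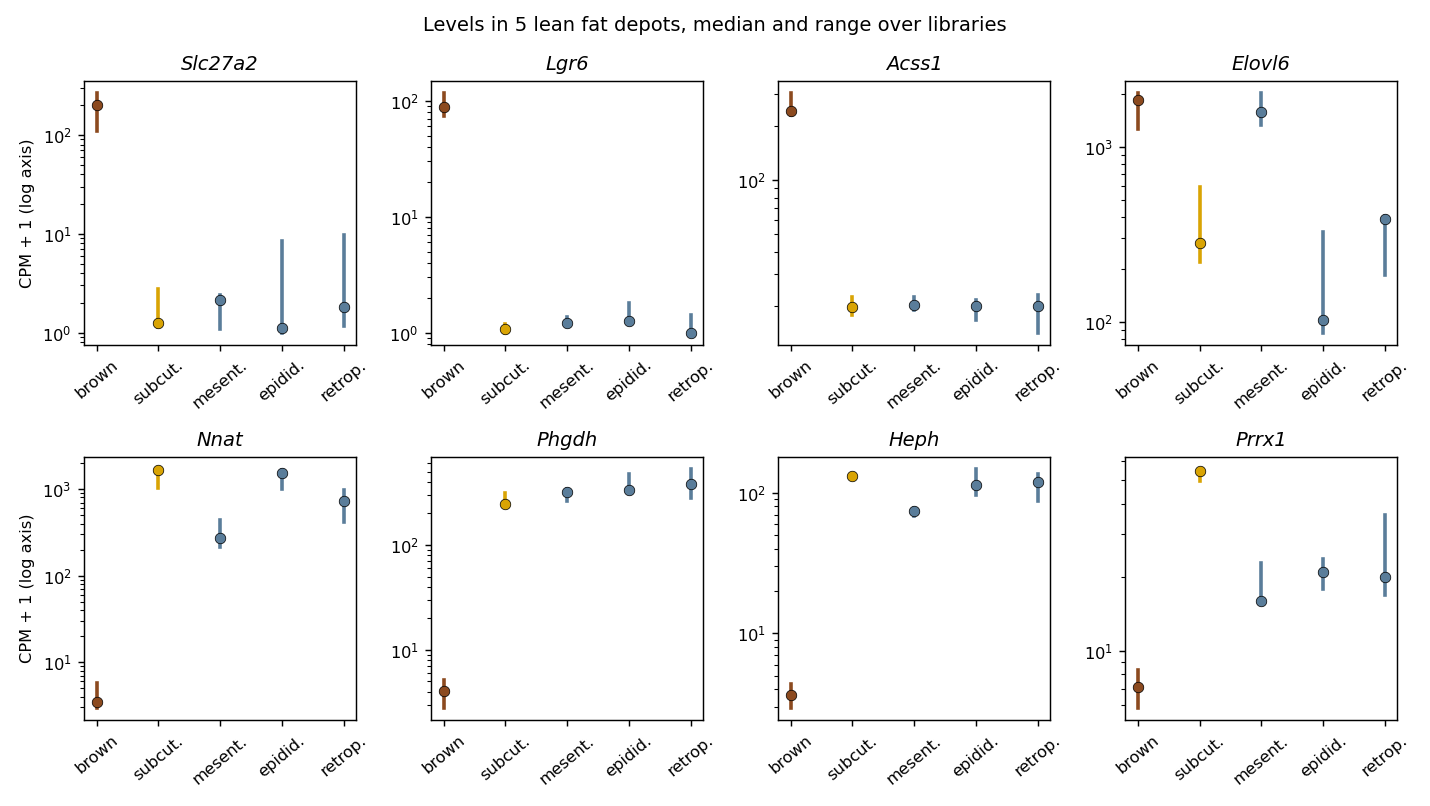
Level of 8 genes in lean brown, subcutaneous, mesenteric, epididymal and retroperitoneal fat, as CPM + 1 on a log axis that differs between panels; points are medians and lines run from the lowest to the highest library (4, 3, 3, 5 and 5 libraries). Slc27a2, Lgr6 and Acss1 are highest in brown fat, Elovl6 is as high in mesenteric fat (1331 to 2029 CPM), and Nnat, Phgdh, Heph and Prrx1 are lowest in brown fat.

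Markers of other cell types differed between the depots as well. All 5 tested macrophage genes were lower in brown fat on both scales, with a median of -2.06. Mrc1, Ctss, Fcgr2b and Fcgr3 had brown means of 8.19, 4.78, 4.16 and 3.22 CPM. They passed the limit of 10 CPM only through subcutaneous fat, which fixed the direction of their CPM means. Mrc1, the mannose receptor, had 7.58, 6.80, 10.8 and 7.60 CPM in brown fat against 74.3, 109 and 46.9 CPM in subcutaneous fat and differed by -2.49 ± 0.26. Ctss, cathepsin S, differed by -2.23, Fcgr2b and Fcgr3, receptors for immunoglobulin G, by -2.06 and -1.90, and Sirpa, the receptor for CD47, by -1.47. Ptprc, the leukocyte antigen CD45, was the only tested lymphoid gene and differed by -1.42 (limma adjusted p 5.92e-05). It too passed only through subcutaneous fat, with a brown mean of 4.73 CPM. The 14 macrophage genes in the table summed to 41.3 to 57.6 CPM in brown fat and 206.5 to 418.4 CPM in subcutaneous fat. The summed level of the 18 lymphoid genes was 9.5 to 14.8 CPM in brown fat and 43.0 to 58.5 CPM in subcutaneous fat, against 1761 and 2470 CPM in the 2 subcutaneous libraries that were set aside. The part of these cells in the lower matrix, Lbp and Csf1 levels of brown fat was not tested.

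Endothelial and mural genes depended on the scale. On CPM 9 of 11 were lower in brown fat and none higher, but after rescaling 4 were lower and 1 was higher, close to or below the shares over all genes, with a median of -0.17. Cd34, also found on stromal progenitors, had 14.8, 14.7, 24.7 and 15.9 CPM in brown fat against 119, 201 and 95.4 CPM in subcutaneous fat and differed by -2.32 ± 0.25. Sox17 and Sox18, transcription factors of endothelium, and Egfl7, an endothelial secreted protein, differed by -1.05, -0.83 and -0.82. Sox17 passed the limit of 10 CPM only through subcutaneous fat. Emcn, Dll4, S1pr1 and Eng, which are endothelial surface proteins, were called lower on CPM and were not called after rescaling, where they differed by -0.34, -0.17, -0.13 and -0.12. Among nerve genes 1 of 3 was higher and 2 were lower on both scales. The 7 nerve genes in the table summed to 73.6 to 93.7 CPM in brown fat and 123 to 154 CPM in subcutaneous fat. Rgs7, a regulator of G-protein signals known from neurons, differed by 2.03, and Syp, synaptophysin, by -0.79.

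Skeletal muscle transcripts differed among the brown libraries themselves. Ttn, the giant sarcomere protein titin, had 1.31, 107, 37.3 and 97.9 CPM in brown fat lean 1, 3, 4 and 5, against 0.250, 0.207 and 0 CPM in subcutaneous fat. Neb, nebulin of the thin filament, had 0.450, 40.1, 16.7 and 39.5 CPM in the same brown libraries against 1.54, 2.03 and 1.2 CPM in subcutaneous fat, and Tnnc2, fast troponin C, had 0.138, 51.3, 17.7 and 56.6 CPM against 1.79, 1.2 and 1.2 CPM. Brown fat lean 1 had at most 1.31 CPM of these 3 genes and the other 3 brown libraries at least 16.7 CPM. The 3 genes passed the limit of 10 CPM only through brown fat. Ttn, Neb and Tnnc2 were called higher in brown fat, at 5.02 ± 1.17, 2.87 ± 1.05 and 3.11 ± 1.21, but with brown fat lean 1 as the only brown library the CPM differences of Tnnc2 and Neb were -1.06 and -0.82. Of the 8 tested muscle genes 7 were higher after rescaling with all 4 brown libraries and 3 with lean 1 alone. Des, desmin, which smooth muscle also expresses, had 56.6, 70.9, 62.4 and 79.3 CPM in brown fat against 16.8, 12.6 and 22.8 CPM in subcutaneous fat, so that lean 1 was also above subcutaneous fat. The list's summed level was 2222 to 2619 CPM in brown fat and 1856 to 1909 CPM in subcutaneous fat, against 37500 to 47200 CPM in lean soleus, and of its 28 members 3 to 7 were at 0 in brown and 6 or 7 in subcutaneous fat.

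The mitochondrial differences were also present in brown fat lean 1, which had the lowest Ttn, Neb and Tnnc2 of the 4 brown libraries. Its summed level over the muscle list, 2411 CPM, was not the lowest, and the part of muscle RNA in these differences was not tested. Coq8a and Esrrg are high in muscle, with medians of 2360 and 194 CPM in lean soleus, and brown fat lean 1 had 1523 CPM of Coq8a and 23.5 CPM of Esrrg beside 1.31 CPM of Ttn. With lean 1 as the only brown library, 16 of 17 respiratory subunits, 11 of 11 assembly and electron transfer genes, 9 of 10 citric acid cycle genes and 12 of 15 oxidation genes were higher after rescaling. Over all genes 476 were then higher and 481 lower. Keratinocyte genes summed to at most 0.346 CPM in brown fat and at most 0.995 CPM in subcutaneous fat.

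**Figure D4:**
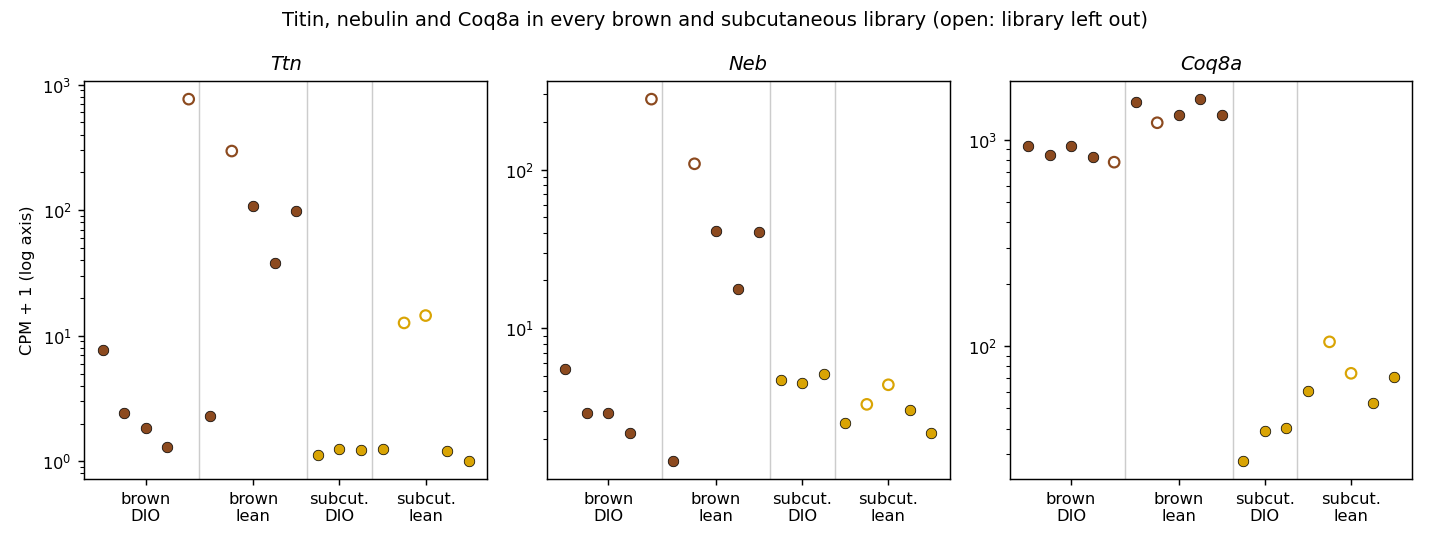
Titin, nebulin and Coq8a in every brown and subcutaneous fat library, as CPM + 1 on a log axis; filled points entered the comparisons and open points are the libraries that were set aside. Ttn varies from 1.31 to 107 CPM among the 4 lean brown libraries, whereas Coq8a stays between 1315 and 1572 CPM in them and at or under 69.7 CPM in the 3 lean subcutaneous libraries.

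The same depot difference was measured in DIO mice, in libraries that the lean comparison did not use. There 728 genes were higher in brown fat (37.9%) and 732 lower (38.1%) after rescaling, and on CPM, where the median difference was -0.58, 304 were higher (15.8%) and 1398 lower (72.9%). Of the genes called in lean mice after rescaling, 573 were higher and 545 lower in both diets, 31 were called in opposite directions, 90 were higher in lean mice and not called in DIO mice, and 109 were lower in lean mice and not called in DIO mice. Across the 1919 genes, which are not independent replicates, the DIO and lean differences had a Pearson r of 0.90 and a Spearman rho of 0.88. In DIO libraries 16 of 17 respiratory subunits were again higher and Atp5g3 lower, 14 of 15 oxidation genes were higher and 1 lower, and 21 of 22 matrix genes were lower. The lower oxidation gene was Slc27a4, a fatty acid transport protein, at -0.20 in DIO mice (limma adjusted p 0.0402). The DIO brown libraries had 6.74, 1.43, 0.847 and 0.300 CPM of Ttn, all below the 37.3 CPM of the lowest of brown fat lean 3, 4 and 5.

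**Figure D5:**
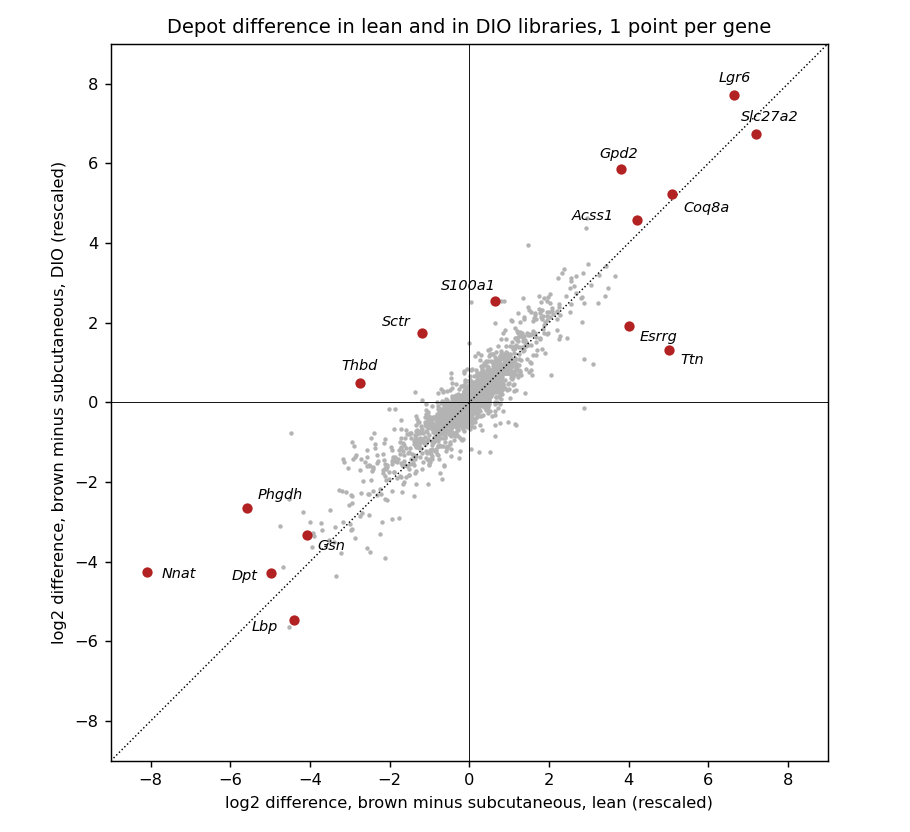
Rescaled log2 difference of brown minus subcutaneous fat in lean (x) and DIO (y) libraries, 1 point per gene, with 15 genes in red and the line of equal differences dotted. Most points follow the line (Pearson r 0.90 across 1919 genes); Thbd and Sctr have opposite signs in the 2 diets and Nnat and Phgdh lie closer to 0 in DIO.

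The size of the depot difference itself differed between diets for 583 genes after rescaling (30.4%) and for 535 on CPM (27.9%), by the limma test of the depot by diet interaction. With the libraries that were set aside restored, the count on CPM was 316. Of the 583, the depot difference was larger in DIO with the same sign for 211 genes, smaller with the same sign for 232, and of opposite sign for 140. Phgdh had 12.6, 15.5, 31.2 and 27.6 CPM in brown fat and 172, 200 and 228 CPM in subcutaneous fat of DIO mice, a difference of -2.64, against -5.59 in lean mice. Nnat had 20.2, 14.7, 41.9 and 48.9 CPM in brown fat and 638, 1103 and 835 CPM in subcutaneous fat of DIO mice, a difference of -4.26, against -8.09 in lean mice. In both genes every DIO brown library lay above every lean brown library and below every subcutaneous library. Gpd2 had 1481, 1396, 1112 and 1218 CPM in brown fat and 29.1, 34.6 and 33.5 CPM in subcutaneous fat of DIO mice, and its difference was 5.87 in DIO and 3.82 in lean mice. Esrrg had 34, 23.1, 23.3 and 26.0 CPM in brown fat and 9.97, 9.16 and 9.72 CPM in subcutaneous fat of DIO mice, a difference of 1.92 in DIO and 4.00 in lean mice. For Gpd2 and Esrrg the subcutaneous libraries of the diets did not overlap, while the brown ones did.

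Of the 4 genes with the smallest p of the interaction, 3 are described, and they had subcutaneous levels that did not overlap between the diets. Thbd, the anticoagulant receptor thrombomodulin, had 29.5, 28.1, 37.8 and 30.5 CPM in brown fat and 34.1, 29.1 and 37.5 CPM in subcutaneous fat of DIO mice. In lean mice it had 18.7, 15, 16.5 and 12.7 CPM in brown fat and 196, 134 and 163 CPM in subcutaneous fat. Its depot difference was 0.49 in DIO and -2.75 in lean mice (limma adjusted p of the interaction 1.38e-07). S100a1, a calcium-binding protein of muscle and fat, had 218, 209, 220 and 224 CPM in brown fat and 49.6, 61.5 and 55.1 CPM in subcutaneous fat of DIO mice, and 218, 180, 205 and 209 CPM in brown fat and 184, 169 and 222 CPM in subcutaneous fat of lean mice. Its brown libraries overlapped between diets, and its depot difference was 2.55 in DIO and 0.65 in lean mice. Sctr, the receptor for the gut hormone secretin, had 5.87, 6.66, 7.53 and 6.35 CPM in brown fat and 1.34, 2.50 and 2.52 CPM in subcutaneous fat of DIO mice, against 7.75, 6.80, 5.36 and 5.14 CPM in brown fat and 22.6, 20.4 and 24.4 CPM in subcutaneous fat of lean mice. Its depot difference was 1.75 in DIO and -1.19 in lean mice. With a lean brown mean of 6.26 CPM, Sctr passed the limit of 10 CPM only through subcutaneous fat. That fixed the direction of its lean CPM means.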

How the data were processed

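RNA was sequenced as stranded poly(A) paired-end libraries, per the labels' protocols. FastQC, STAR, HTSeq and DESeq2 stand in the submitters' processing notes, and no version, genome build or strand setting was found in the labels. The deposited table holds CPM values, gene counts as the authors scaled them to library size. A gene with an incomplete row and 1 column that matched no sample were dropped. Whole reads could be recovered for 100% of values in every library, within the rounding of the file, and were used only in alternatives.

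Genes averaging 10 CPM or more in the 7 lean libraries were tested by limma 3.58.1 (R 4.3.3), with a trended prior variance, on log2(CPM + 1), which understates changes of low genes, with Benjamini-Hochberg adjustment over 1919 genes and a threshold of 0.05. Because the median gene was lower in brown fat, differences are printed after division by median-of-ratios size factors (0.808 to 0.873 in brown, 1.221 to 1.277 in subcutaneous fat). Reads on genes outside the table were not analysed here, so neither scale is free of what those genes do. Alternatives were a pseudocount of 5, no filter, array weights, edgeR 4.0.16 quasi-likelihood with TMM and DESeq2 1.42.0 on recovered reads, restored libraries and each library left out. Counting intervals cover counting error only. The depot by diet test used 14 libraries. Scripts were tested on simulated data.

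Named genes were the 14 largest CPM-scale rises and falls without overlap and with at least 50 CPM in the higher depot, up to 8 members per list with the largest differences, and the 4 genes with the smallest p of the interaction. The libraries, the lists and the named members were chosen with earlier results of these data known; lists share some genes. Some genes that these rules name are not reported here. Gene symbols matched GENCODE M21 for 13139 identifiers. Promoters are from RefSeq. Exons of Idh3b and Nop56, Coq8a and Cdc42bpa, Heph and Hsf3, Egfl7 and Agpat2, Gnas and Nespas, and Ndufb5 and Mrpl47 overlap on opposite strands, so their reads cannot be told apart without a known strand setting. No replicate pair agreed within sampling noise (lowest chi-square per degree of freedom 7.155).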

Additional observations from a re-analysis of the deposited data

Results flagged for a closer look

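Of 137 sets of 4 brown fat values, 6 had a library far from the other 3, by the gap to its nearest neighbour over the range; by chance such a gap turns up in about 5% of sets. In brown fat lean 4, Chst1 was 5.65 CPM and Cd34 24.73 CPM, against at most 3.94 and 15.9 CPM in the other brown libraries. In lean 1, Ndufa10 was 841.1 CPM, against at most 741 CPM. In lean 5, Mpc2 was 519.1 CPM, against at most 489 CPM, and Slc16a1 278 CPM, against at least 343 CPM. In lean 3, Abcd3 was 394.2 CPM, against at least 485 CPM. None of these libraries reached the range of subcutaneous fat.

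Of 32 genes examined, 17 had a depot difference that itself differed between DIO and lean mice (limma interaction, rescaled log2, DIO minus lean, adjusted over all genes), beside 583 of all 1919 genes (30.4%). Thbd, S100a1 and Sctr were chosen for their small interaction p, so the count of 17 is no measure of how often such genes differ. The depot difference was wider in DIO for Lgr6 (1.017, adjusted p 0.00236), Gpd2 (2.051, 0.000116), Idh3b (0.512, 0.00524), Tmem79 (1.66, 0.00101), Elovl6 (1.455, 0.0197) and S100a1 (1.908, 8.37e-07). It was narrower in DIO for the brown-high genes Rnf152 (-0.7383, 0.0106) and Esrrg (-2.111, 0.000273). It was also narrower for genes lower in brown fat, where the interaction was positive: Nnat (3.837, 0.000141), Phgdh (2.958, 0.000116), Chst1 (1.663, 0.00122), Gsta3 (2.115, 0.000802), Dock11 (1.448, 0.00139), Inhbb (1.022, 0.0013) and Sucnr1 (0.7216, 0.0444). It changed sign for Thbd (3.243, 1.38e-07) and Sctr (2.935, 1.67e-06). For Rnf152, which encodes a lysosomal ubiquitin ligase, brown fat had 58.2 to 71.0 CPM in DIO and 59.4 to 84.1 CPM in lean mice, and subcutaneous fat 11.5 to 16.6 CPM in DIO and 7.43 to 10.5 CPM in lean mice. With a lean subcutaneous mean of 8.63 CPM, Rnf152 passed the limit of 10 CPM only through brown fat.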

How the results depend on the processing

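Counts of calls turned mainly on the scale and the filter. In lean mice 284 genes were higher in brown fat on CPM, 451 without the filter, 680 rescaled, 684 by edgeR and 683 by DESeq2, and 1285 were lower on CPM, 2438 without the filter, 668 rescaled, 659 by edgeR and 671 by DESeq2. In DIO mice 304 were higher on CPM, 554 without the filter, 728 rescaled, 722 by edgeR and 723 by DESeq2, and 1398 were lower, 2746 without the filter, 732 rescaled, 747 by edgeR and 716 by DESeq2. The interaction gave 535 calls, and 316 with the left-out libraries restored. With each library left out in turn the counts ran from 258 to 285 higher and 1244 to 1300 lower in lean mice, 283 to 305 higher and 1358 to 1400 lower in DIO mice, and 397 to 581 for the interaction. Over 110 named genes and all settings, 1580 values kept their side of the threshold, 46 lost and 16 gained a call. Another 8 changed sign where the main or the alternative setting had a call. Sign changes without a call in either setting, as for Mecom after rescaling, are among the 1580. Ivd turned from -0.38 on CPM to 0.18 rescaled, 0.187 by edgeR and 0.181 by DESeq2, Meis2 from -0.44 to 0.0798 rescaled, 0.0992 by edgeR and 0.0928 by DESeq2, and Tnnc2 and Neb to -1.065 and -0.8247 with brown fat lean 1 alone, a setting chosen after seeing the data, which gave 216 higher and 1010 lower genes. The lone library is assumed to vary like the others. No paired analysis was possible because the labels carry no replicate numbers and do not tie libraries to mice. Read depth limits genes under 10 CPM, which were described and not tested.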

Other observations

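Families outside the lists, taken by symbol after the lists were made, are given as counts. Over all tested genes 35.4% were higher and 34.8% lower in brown fat after rescaling, and 14.8% and 67.0% on CPM. In DIO mice the rescaled shares were 37.9% and 38.1%. Mitochondrial ribosomal proteins were higher in brown fat in 13 of 14 cases after rescaling and lower in none (median 0.94), and on CPM in 9, with 1 lower; in DIO mice 14 of 14 were higher. Mrps2 and Mrpl47 differed by 1.95 and 1.79 in lean mice. Cytosolic ribosomal proteins ran the other way, with 15 of 16 lower in brown fat after rescaling, 16 of 16 on CPM, and a median of -0.79, and in DIO mice 14 of 16 were lower and 1 was higher. Of the import and cristae genes 7 of 8 were higher and 1 was lower after rescaling, led by Apoo, a cristae protein, at 2.68. Proteasome subunits depended on the scale, with 4 of 10 higher and none lower after rescaling and 1 higher and 7 lower on CPM. The CPM counts and the higher count after rescaling were close to the shares over all genes.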
